A study of Mus musculus with 67 samples.

Results

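Transcript levels of 9 genes that make, store, remove or pass on the sympathetic signal were compared among 3 inbred mouse strains with different blood pressure. The genes were found by their symbols in the platform's table of probe sets, a rule that uses names and no values, although the set was proposed with earlier results of these data known. Th, Ddc and Dbh belong to catecholamine synthesis, Slc6a2 to uptake, Maoa and Maob to breakdown, Npy to co-transmission, Adra2c to the receptors and Grk5 to receptor desensitising. All 9 were measured, by 12 of the 24478 probe sets that carry a single gene symbol, which cover 19147 genes. Ddc, Maoa and Grk5 have 2 probe sets each, called probe set 1 and probe set 2 here, and the other 6 genes have 1.

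The study hybridised 67 single-colour arrays of male mice aged 12 weeks, for which no treatment is given. BPH/2J is the hypertensive strain, with a stated systolic pressure of 142 ± 5 mmHg, BPN/3J is normotensive at 94 ± 6 mmHg and BPL/1J is hypotensive at 69 ± 1.7 mmHg, where the kind of error is not stated. The arrays are 9 BPH, 5 BPN and 9 BPL of aorta, 5 of each strain of heart and of liver, and 5 BPH, 5 BPN and 4 BPL of kidney. Per the labels, tissue came from 5 mice per strain and arrays are not tied to animals. The p-values therefore measure the spread between arrays. If the 5 mice per strain hold for aorta, some of the 9 BPH and some of the 9 BPL aorta arrays share a mouse. Arrays of different tissues of a strain may share a mouse too. Each strain is 1 inbred line, and its blood pressure and the rest of its genetic background cannot be told apart. The tissue labels held: summed intensities of smooth muscle markers were 29013 to 37996.6 in aorta, of cardiomyocyte markers 84847 to 91017 in heart, of proximal tubule markers 24279.5 to 26586 in kidney and of hepatocyte markers 22798 to 27308 in liver. Atrial and hepatocyte markers in aorta, hepatocyte markers in heart and adrenal cortex markers in kidney stood over 3 times the tissue's median on 10 arrays: 1 BPH, 1 BPN and 2 BPL arrays of aorta, 1 array of each strain of heart, and 2 BPN and 1 BPL arrays of kidney. In aorta the sum of 3 hepatocyte markers was only 66.0 on BPN array 11 and 61.5 on BPL array 24, against 1774.7 on BPL array 26. The median intensity of a single probe set was 25.3 to 26.6 on aorta arrays, so arrays BPN 11 and BPL 24 passed the threshold at a low level. Main results are given with and without the 10 arrays.

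Sympathetic nerves release noradrenaline on the heart, the vessels and the kidney. Tyrosine hydroxylase (Th) makes L-DOPA from tyrosine and limits the rate of synthesis, aromatic L-amino acid decarboxylase (Ddc) turns L-DOPA into dopamine, and dopamine beta-hydroxylase (Dbh) turns dopamine into noradrenaline inside the vesicle. Ddc is also abundant outside nerves, in proximal tubule cells of the kidney, which make dopamine from circulating L-DOPA, and in liver. Neuropeptide Y (Npy) is stored with noradrenaline in many sympathetic nerves and constricts vessels. The noradrenaline transporter (Slc6a2) takes the transmitter back into the nerve, the monoamine oxidases (Maoa, Maob) break amines down, the alpha-2C receptor (Adra2c) restrains release, and G protein-coupled receptor kinase 5 (Grk5) phosphorylates activated receptors, after which arrestins bind and uncouple them. The cell bodies of sympathetic neurons lie in ganglia, so that much of the neuronal transcript pool is outside these 4 tissues. In whole tissue, fewer cells of a type and less RNA per cell cannot be told apart.

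Promoter sequence is shown for Ddc and Npy, because Ddc differed between strains in all 4 tissues and Npy had the largest difference of a member. The 250 bases before a start come from RefSeq on GRCm38.p6, the C57BL/6J reference, not from the strains measured, and are written 5′ to 3′ on the gene's strand. Of the 9 genes, 7 matched the table; Slc6a2 and Maob did not. Capitals mark matches to 5 motifs, each searched on both strands. The letters TGACGTCA stand for the cAMP response element, and its shorter core is TGACG, which lies within it. The letters TATAAA were searched for the box of that name. Another motif was CCAAT with its box. The last was GGGCGG, a GC box. Ddc has 2 starts in that table, the second 7736 bases inside the gene from the first.
Ddc, first start, chr11:11898145-11898394, minus strand: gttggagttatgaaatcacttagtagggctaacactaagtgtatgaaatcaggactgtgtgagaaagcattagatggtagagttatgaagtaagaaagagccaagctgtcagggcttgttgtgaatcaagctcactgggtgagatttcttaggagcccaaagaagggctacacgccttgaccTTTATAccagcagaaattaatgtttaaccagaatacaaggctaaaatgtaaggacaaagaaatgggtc
Ddc, second start, chr11:11890409-11890658, minus strand: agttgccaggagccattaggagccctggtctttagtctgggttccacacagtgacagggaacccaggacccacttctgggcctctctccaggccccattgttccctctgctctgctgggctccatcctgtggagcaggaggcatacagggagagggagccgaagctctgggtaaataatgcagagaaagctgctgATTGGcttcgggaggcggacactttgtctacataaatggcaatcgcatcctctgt
Npy, chr6:49822460-49822709, plus strand: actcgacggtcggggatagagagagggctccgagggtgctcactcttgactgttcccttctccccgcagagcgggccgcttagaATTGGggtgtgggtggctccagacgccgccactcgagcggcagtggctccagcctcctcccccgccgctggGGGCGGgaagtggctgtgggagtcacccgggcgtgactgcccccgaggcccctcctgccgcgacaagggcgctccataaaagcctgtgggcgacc
The window of the first Ddc start held a TATA box match on the opposite strand, 68 bases before the start, which 12.4% of all 32851 windows of 250 bases hold. The window of the second Ddc start held a CCAAT match on the opposite strand at 55 bases, a motif found in 33.8% of windows. Npy held a CCAAT match on the opposite strand at 166 bases and a GC box at 95 bases, the latter in 32.7% of windows. The full cAMP response element, in 1.55% of windows, was found in none of these 3 windows but in that of Th, 45 bases before the start, and the core was in 17.8% of windows. Such matches are descriptions of the letters.

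All levels here are log2 of the deposited intensity, and a difference of 1 on this scale is a 2-fold difference in intensity. Each tissue was tested across 38385 probe sets with limma, and a difference was called at a Benjamini-Hochberg adjusted p below 0.05. Of the 12 member probe sets, 44 differences were called over the 4 tissues and 3 strain pairs. For BPH against BPN, aorta had 4 calls beside a background of 9.15% of all probe sets and heart 4 beside 7.02%. Kidney had 2 beside 7.05% and liver 4 beside 7.14%. All of these 14 calls were lower in BPH, and they fell on Ddc in all 4 tissues, on Grk5 in aorta, heart and liver, and on Slc6a2 in aorta. For BPL against BPN, aorta had 3 calls beside 10.3% of all probe sets, heart 5 beside 9.34%, kidney 3 beside 6.24% and liver 4 beside 7.47%. The 5 heart calls were higher in BPL, the 3 aorta and 4 liver calls were lower, and kidney had 1 higher and 2 lower. For BPH against BPL, aorta had 4 calls beside 11%, heart 7 beside 8.57%, kidney 2 beside 6.33% and liver 2 beside 5.77%. Because 3 genes count with 2 probe sets and the pairs share a strain, these counts are not independent of each other.

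**Figure D1:**
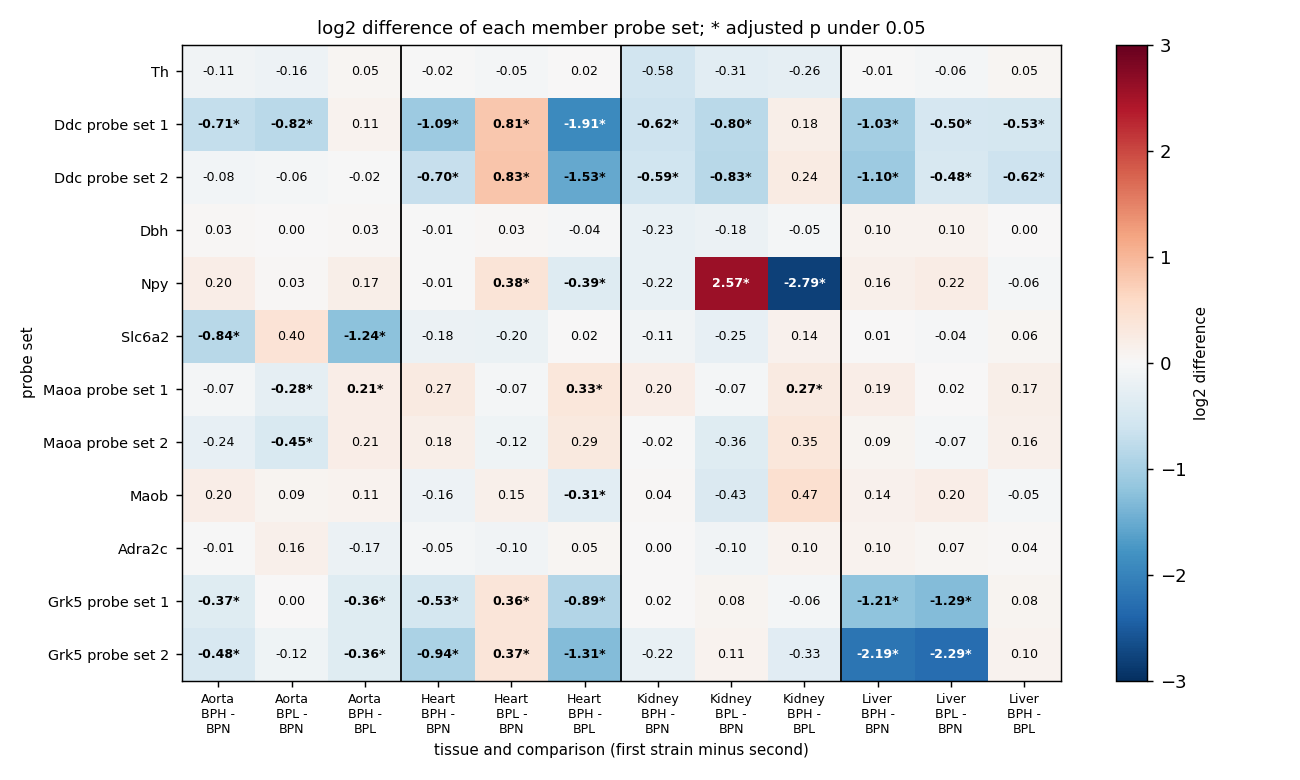
Colour map of the log2 difference (first strain minus second) of each of the 12 member probe sets (rows) in each tissue and strain pair (columns), with the value in each cell and bold values with a star where the adjusted p was under 0.05. Ddc and Grk5 are blue for BPH minus BPN in several tissues, and the deepest colours are Npy in kidney, at 2.57 and -2.79, and Grk5 probe set 2 in liver, at -2.19 and -2.29.

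Ddc, the decarboxylase that makes dopamine, was lower in BPH than in BPN in every tissue, on both probe sets in heart, kidney and liver and on probe set 1 in aorta. It was also lower in BPL than in BPN in aorta, kidney and liver but higher in BPL in heart. The heart gave the widest separation of BPH from BPL. Ddc probe set 1 in heart was 4.92, 5.48, 4.46, 4.48 and 4.88 on the BPH arrays, 5.98, 6.00, 5.78, 5.90 and 6.03 on the BPN arrays and 6.55, 6.88, 6.88, 6.75 and 6.69 on the BPL arrays. The strains stood in the order BPH, BPN, BPL with no overlap between neighbours, and BPH varied most. Heart means were 4.84 ± 0.41 (SD, n = 5) in BPH, 5.94 ± 0.10 in BPN and 6.75 ± 0.14 in BPL. BPH was lower than BPN by a factor of 2.13 (log2 difference -1.09, SE 0.14, adjusted p = 5.41e-05), and BPL was 1.76-fold higher than BPN (0.81, SE 0.14, adjusted p = 0.001). Between BPH and BPL the ratio was 3.75 (adjusted p = 4.52e-08). Probe set 2 gave the same order, with means of 5.65, 6.35 and 7.18 and ratios of 1.62 for BPH against BPN (adjusted p = 2.93e-05) and 1.78 for BPL against BPN (adjusted p = 3.43e-06). Without the 3 heart arrays high in hepatocyte markers, Ddc probe set 1 gave -1.10 and 0.82 against BPN, and every heart call of the 9 genes was kept.

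Some markers of smooth muscle moved with Ddc in heart. Against BPN, 1 of 6 was lower in BPH and 1 of 6 higher in BPL, and the other 5 were not called in either comparison. For BPH against BPL, 3 of 6 smooth muscle markers were lower and none higher, with Acta2 at -1.78, Myh11 at -0.57 and Cnn1 at -0.53, and Acta2 was also lower in BPH than in BPN (-0.42) and higher in BPL than in BPN (1.35). The summed intensity of that list was 694 to 729 in BPH, 766 to 810 in BPN and 805 to 1027 in BPL, against 84847 to 91017 for cardiomyocyte markers, of which 0 of 6 differed. Adipocyte markers were lower in 3 of 5 for BPH against BPL, led by Adipoq at -3.48, while their summed intensities overlapped at 2613 to 3372 in BPH, 2825 to 4115 in BPN and 2791 to 4732 in BPL. Mast cell markers went the other way, with 4 of 6 lower in BPL than in BPN and summed intensities of 246 to 276 in BPL, 315 to 368 in BPH and 327 to 363 in BPN. The part of these cells in the heart values was not tested.

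In kidney, where the proximal tubule makes dopamine, Ddc lay well above the array medians of 4.90 to 4.98 and separated BPN from both other strains. Ddc probe set 1 was 9.24, 9.14, 9.25, 9.26 and 9.20 in BPH, 9.71, 9.72, 10.07, 9.94 and 9.76 in BPN, and 9.11, 9.01, 9.17 and 8.88 in BPL. Every BPN array lay above every BPH and BPL array, and the BPH and BPL arrays overlapped. The difference was -0.62 (SE 0.079, 1.54-fold, adjusted p = 6.15e-05) for BPH against BPN and -0.80 (SE 0.084, 1.74-fold, adjusted p = 7.78e-06) for BPL against BPN. Probe set 2 gave -0.59 and -0.83. BPH and BPL differed by 0.18 on probe set 1 and 0.24 on probe set 2, with adjusted p of 0.295 and 0.101. Of 6 proximal tubule markers, 1 was higher in BPH and 2 were higher in BPL than in BPN and none was lower, and their summed intensity was 24279.5 to 25917 in BPH, 24672 to 25920 in BPN and 25725 to 26586 in BPL. The hepatocyte list also separated BPN, with 1 of 3 markers higher in BPH and BPL: Ttr, the transthyretin gene, at 3.13 and 4.16 against BPN, whose part was not tested. The mast cell list was higher in BPH in 2 of 6 markers, Hdc at 4.76 and Kit at 0.44 against BPN, with sums of 1507 to 1840 in BPH, 320.2 to 345 in BPN and 306 to 365 in BPL, and its part was not tested either. Without the 3 kidney arrays high in adrenal markers, the Ddc differences were -0.62 and -0.81 on probe set 1 and -0.56 and -0.82 on probe set 2.

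In liver, Ddc probe set 1 was 9.75, 9.61, 10.16, 9.67 and 9.62 in BPH, 10.75, 10.80, 10.80, 10.89 and 10.74 in BPN, and 10.40, 10.06, 10.46, 10.21 and 10.35 in BPL. BPN lay above both other strains without overlap, while the highest BPH array reached into BPL. BPH was 2.05-fold lower than BPN (log2 difference -1.03, SE 0.098, adjusted p = 7.30e-07), BPL 1.42-fold lower than BPN (-0.50, adjusted p = 0.00247) and BPH 1.45-fold lower than BPL (-0.53, adjusted p = 0.00159). Probe set 2 gave ratios of 2.14, 1.39 and 1.54 in the same directions. The summed hepatocyte markers overlapped between strains, at 23173 to 25436 in BPH, 24296 to 27308 in BPN and 22798 to 24421 in BPL, with 1 of 3 lower in BPL than in BPN.

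Aorta was the tissue in which the probe sets of Ddc differed in what they showed. Probe set 1 ran from 4.34 over a median of 5.04 to 5.42 in BPH and from 4.42 over 4.78 to 5.69 in BPL, and was 5.40, 5.41, 5.85, 6.01 and 5.83 on the BPN arrays. BPN was the higher strain, and its lowest 2 arrays overlapped both others. The difference was -0.71 for BPH against BPN (SE 0.18, adjusted p = 0.0123) and -0.82 for BPL against BPN (SE 0.18, adjusted p = 0.00326). Without BPN array 14 the first was no longer called, at an adjusted p of 0.0505. Probe set 2 lay below the array median on all 23 aorta arrays, with means of 3.42, 3.50 and 3.44 and a BPH to BPN difference of -0.076 (95% interval -0.33 to 0.18, adjusted p = 0.815). Of 6 proximal tubule markers, which other cells of the aorta can also express, 1 was lower in BPH than in BPN, the water channel Aqp1 at -0.72, and their sum was 2208 to 3239 in BPH, 3454 to 4514 in BPN and 3208 to 4634 in BPL. Cardiomyocyte markers were higher than in BPN in 2 of 6 in BPH (Tnnt2 at 1.84, Ryr2 at 0.87) and in 2 of 6 in BPL (Actc1 at 3.50, Ryr2 at 0.57), with sums of 1231 to 5074 in BPH, 729 to 1164 in BPN and 1569 to 2548 in BPL. The part of these lists in the aorta values was not tested. Without the 4 aorta arrays high in atrial or hepatocyte markers, Ddc probe set 1 gave -0.75 for BPH (adjusted p = 0.00907) and -0.99 for BPL (adjusted p = 0.00079) against BPN.

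**Figure D2:**
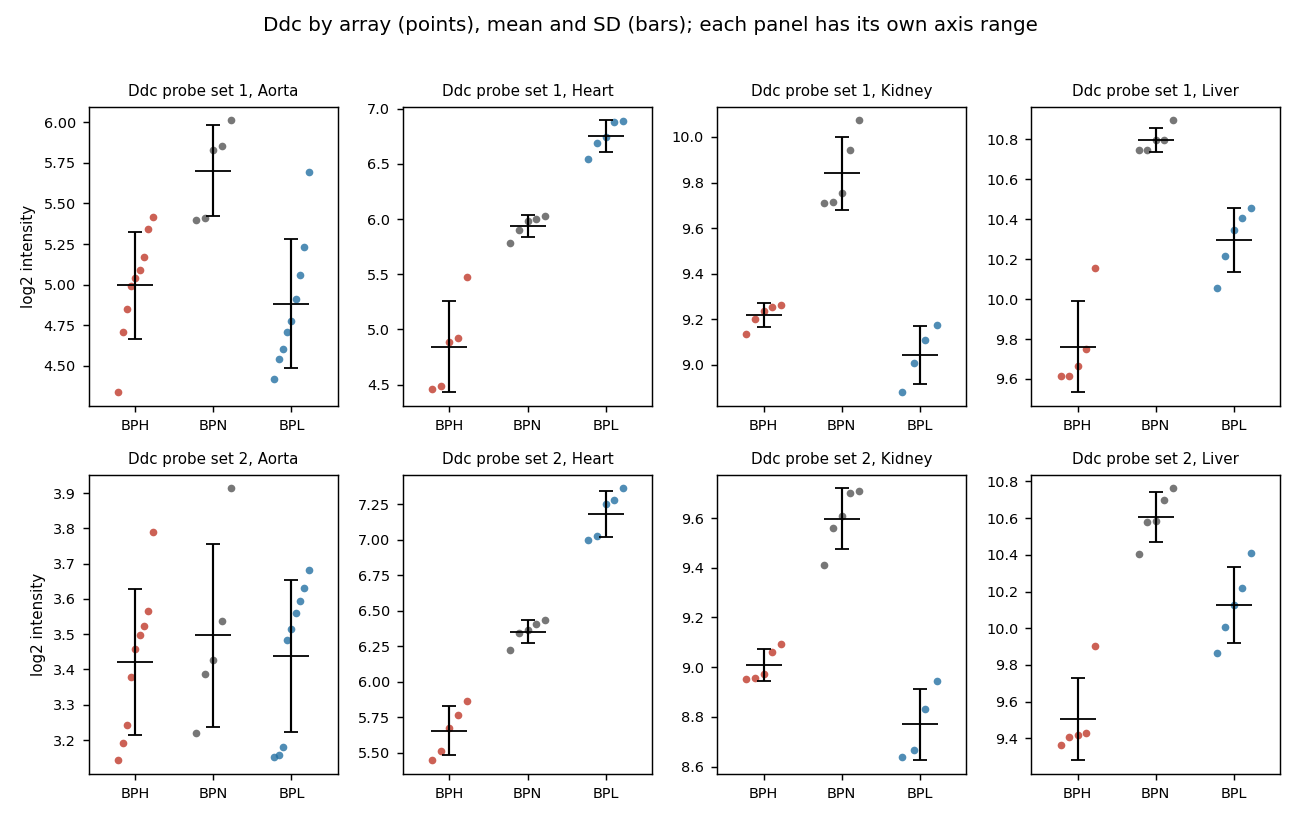
Log2 intensity of Ddc probe set 1 and probe set 2 by tissue and strain, with a point for each array in order of value, bars for the mean and SD, and an axis range for each panel. BPN arrays lie above BPH arrays without overlap in heart, kidney and liver, and in heart BPL arrays lie above both, at 6.55 to 6.88 on probe set 1.

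Th, the first and rate-limiting enzyme, was not called in any tissue. Its group means were 4.14, 4.25 and 4.09 in BPH, BPN and BPL aorta, 3.86, 3.88 and 3.84 in heart and 2.85, 2.86 and 2.80 in liver, and every one of these arrays was below its own array's median. Kidney held the exceptions. Th in kidney was 3.96, 4.13, 4.20, 3.93 and 3.83 in BPH, 4.22, 4.31, 4.23, 5.08 and 5.10 in BPN, and 5.04, 3.82, 4.07 and 4.16 in BPL. The 3 arrays above 5 are the 3 high in adrenal cortex markers, whose summed intensity over 8 genes was 1869 and 2825 in BPN arrays 4 and 5 and 2105 in BPL array 1, against 119 to 211 on the other 11 kidney arrays. The difference between BPH and BPN was -0.58 (SE 0.22, adjusted p = 0.145), and without those 3 arrays it was -0.24 (adjusted p = 0.205). Of 6 chromaffin cell markers 0 differed between strains in kidney, a test that cannot show a rise confined to 3 arrays. Their sums overlapped at 1230 to 1409 in BPH, 1295 to 1722 in BPN and 1198 to 1568 in BPL. Their mean log2 levels per array were 5.00 to 5.19 in BPH, 5.15 to 6.57 in BPN and 5.05 to 6.45 in BPL. The part of such cells in the Th values was not tested. Fitting all 12 groups together called Th for BPH against BPN, at an adjusted p of 0.0233.

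**Figure D3:**
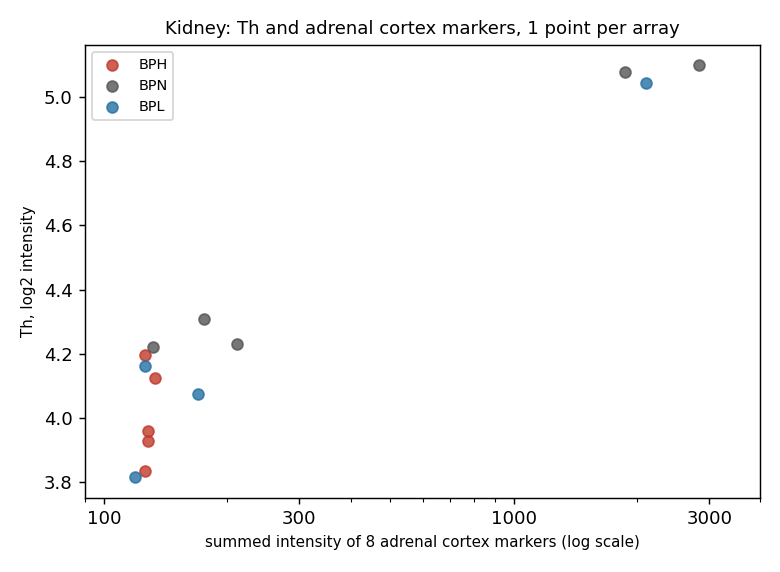
Log2 intensity of Th against the summed intensity of 8 adrenal cortex markers (log axis) on the 14 kidney arrays, coloured by strain. The 3 arrays with sums of 1869 to 2825 have Th of 5.04 to 5.10, and the other 11 lie at or below 4.31.

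Dbh, which makes noradrenaline, gave no called difference, and its intervals were narrow in heart, where every array was above its median. In heart its means were 5.96 ± 0.14 in BPH, 5.97 ± 0.088 in BPN and 6.00 ± 0.12 in BPL (SD, n = 5 each). The differences there were -0.0074 for BPH against BPN (95% interval -0.17 to 0.15) and 0.033 for BPL against BPN (-0.13 to 0.19). In the other tissues Dbh was dim: it was in the lowest 25% of probe sets on all 15 liver arrays, on 13 of 14 kidney arrays and on 16 of 23 aorta arrays, and no difference was called there.

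Npy, the co-transmitter peptide, had the largest strain difference of any member, in kidney. It was 5.56, 5.61, 5.63, 5.59 and 5.50 in BPH, 5.42, 5.70, 5.73, 6.00 and 6.12 in BPN, and 8.41, 8.52, 8.45 and 8.08 in BPL. All 4 BPL arrays stood far above all 10 others, and BPH and BPN overlapped. BPL was 5.94-fold higher than BPN (log2 difference 2.57, SE 0.12, 95% interval 2.32 to 2.83, adjusted p = 3.31e-10) and 6.92-fold higher than BPH (adjusted p = 9.06e-11). The absolute difference from BPN lay at percentile 99.9 of all probe sets of that comparison. Without the 3 arrays high in adrenal markers it was 2.73. The sum of 10 sympathetic neuron markers was not raised in those kidneys, at 216 to 221 in BPL, 272 to 288 in BPN and 260 to 304 in BPH. For BPL against BPN, 1 of the 10 was called, as lower, and their median difference was -0.093. In each strain the means of 4 of the 10 lay below the lower quartile of probe sets, so the sum says little about nerve content. The part of nerve content in the Npy values was not tested.

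A smaller difference of the same direction was seen in heart. Npy there was 5.19, 5.32, 5.18, 5.34 and 5.13 in BPH, 5.43, 5.20, 5.14, 5.22 and 5.21 in BPN, and 5.62, 5.42, 5.72, 5.55 and 5.78 in BPL. The highest BPN array reached the lowest BPL array, and BPH lay below BPL throughout. BPL exceeded BPN by 0.38 (SE 0.075, 1.30-fold, adjusted p = 0.0027), and BPH against BPL was -0.39 (adjusted p = 0.00223). Npy was not called in liver, with means of 4.80, 4.64 and 4.87, or in aorta, with means of 3.26, 3.06 and 3.09 that were below the array median on all 23 arrays.

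Slc6a2, which returns noradrenaline to the nerve terminal, was lower in the aorta of BPH. On the BPH arrays it ran from 4.15 over a median of 5.05 to 5.57 and on the BPL arrays from 5.59 over 6.18 to 6.86, and the BPN arrays read 6.38, 6.13, 5.54, 5.64 and 5.30. BPH and BPL did not overlap, and BPN lay between them and overlapped both. The difference was -1.24 for BPH against BPL (SE 0.19, 2.36-fold, adjusted p = 4.67e-05), -0.84 for BPH against BPN (SE 0.23, 1.79-fold, adjusted p = 0.0188) and 0.40 for BPL against BPN (adjusted p = 0.347). Without the 4 aorta arrays high in atrial or hepatocyte markers, BPH against BPL was -1.12 (adjusted p = 0.000719), while BPH against BPN was -0.67 and not called (adjusted p = 0.108). BPN array 11 is 1 of those 4 arrays, with a hepatocyte marker sum of only 66.0. The BPH against BPN call was also lost without BPN array 11 or BPN array 12 alone, at an adjusted p of up to 0.0816.

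Markers of sympathetic neurons did not move together in aorta. Of 10 measured, BPH against BPN had 2 higher, Stmn2 at 0.61 and Hand2 at 0.39, and 1 lower, the growth cone protein Gap43 at -0.62 (adjusted p = 0.00437). Their summed intensity was 2341 to 3586 in BPH, 2676 to 3070 in BPN and 782 to 1133 in BPL, the last with Uchl1 at -3.54 against BPN. The part of nerve content in the Slc6a2 values was not tested. In heart, kidney and liver Slc6a2 was below the array median on all 44 arrays, with means of 3.95, 4.13 and 3.92 in heart, and no difference was called.

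**Figure D4:**
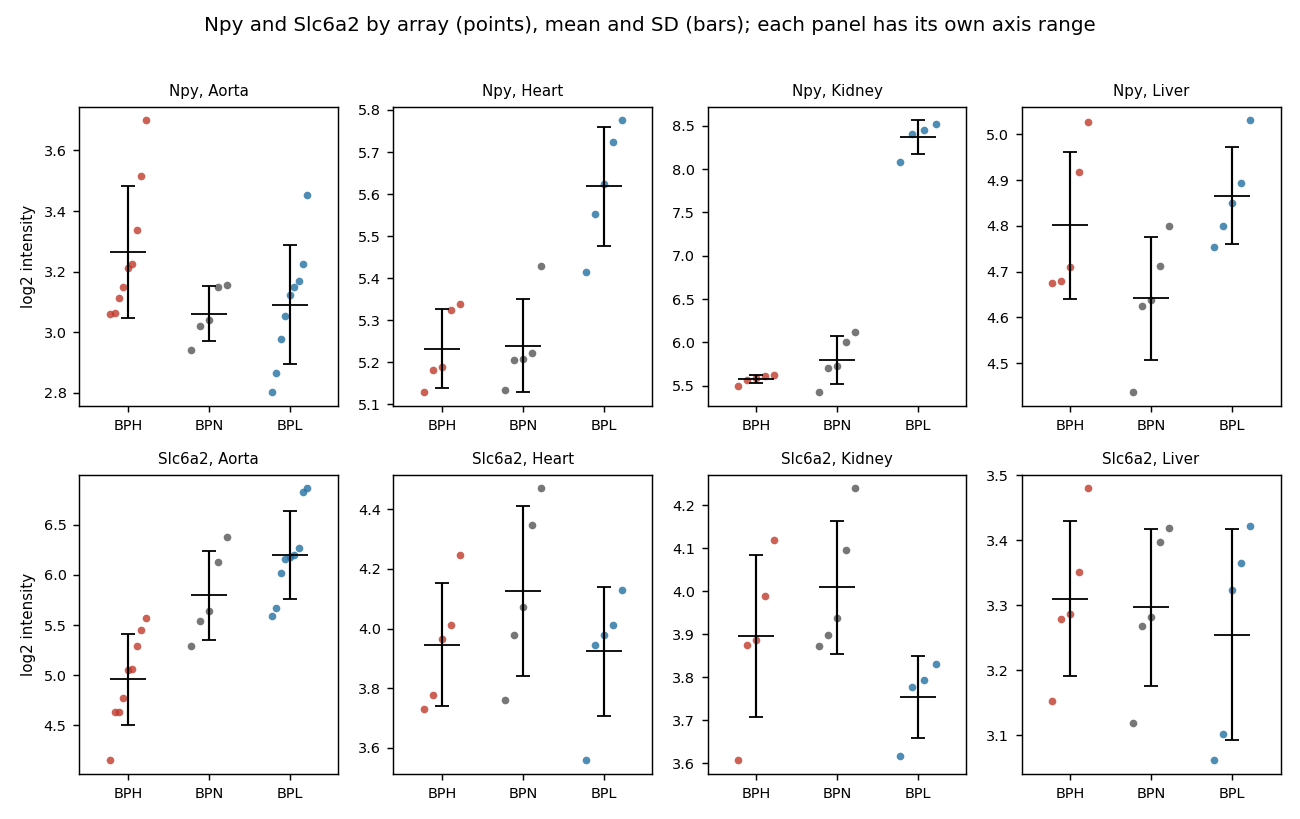
Log2 intensity of Npy and Slc6a2 by tissue and strain, with a point for each array in order of value, the mean and SD as bars, and an axis range for each panel. The 4 BPL kidney arrays of Npy lie at 8.08 to 8.52 against at most 6.12 in the other strains, and Slc6a2 in aorta lies at 4.15 to 5.57 in BPH and 5.59 to 6.86 in BPL.

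The monoamine oxidases had small differences, none called above 1.36-fold. Maoa, which prefers noradrenaline and serotonin, was lower in BPL than in BPN in aorta, with a log2 difference of -0.28 on probe set 1 (SE 0.071, 1.22-fold, adjusted p = 0.00879) and -0.45 on probe set 2 (SE 0.10, 1.36-fold, adjusted p = 0.00411). Its means on probe set 1 were 8.31 ± 0.10 in BPH (SD, n = 9), 8.37 ± 0.045 in BPN (n = 5) and 8.09 ± 0.12 in BPL (n = 9), with no overlap between BPN and BPL. BPH exceeded BPL by 0.21 there (adjusted p = 0.0178). Smooth muscle markers in aorta summed to 33434 to 37260 in BPH, 34088 to 37997 in BPN and 29013 to 34870 in BPL. Of 6, 1 was lower in BPL than in BPN and 2 were higher in BPH than in BPL, and none went the other way. Their part in the Maoa values was not tested. Without the 4 arrays high in other tissues' markers, the probe set 1 differences were -0.27 (adjusted p = 0.0553) and 0.19, neither called, while that of probe set 2 was -0.46 and called (adjusted p = 0.0193).

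BPH exceeded BPL in Maoa probe set 1 in heart and kidney too. In heart the means were 6.41 ± 0.13, 6.14 ± 0.15 and 6.08 ± 0.11 in BPH, BPN and BPL, and BPH was 1.26-fold higher than BPL with no overlap (log2 difference 0.33, SE 0.081, adjusted p = 0.0135). BPH against BPN in heart was 0.27 and not called (adjusted p = 0.0589), but several alternatives called it, among them the fit of all groups (0.0434). Kidney means were 7.32 ± 0.063, 7.13 ± 0.11 and 7.05 ± 0.093, and BPH was 1.21-fold higher than BPL (0.27, SE 0.070, adjusted p = 0.0293). The kidney call was lost without BPH array 1, 4 or 5 or without BPL array 4 or 5, at an adjusted p of up to 0.0941, in the fit of all groups (0.0586), with arrays centred on their medians (0.0902) and with the array number as a block (0.0761). Without the 3 arrays high in adrenal markers it was 0.29 (adjusted p = 0.0336). Probe set 2 was not called in heart or kidney, and neither was in liver, where the probe set 1 means were 6.38, 6.19 and 6.20.

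Maob, the oxidase that favours phenylethylamine, had 1 called difference within tissues. In heart its means were 9.98 ± 0.11 in BPH, 10.14 ± 0.078 in BPN and 10.30 ± 0.058 in BPL, and BPH was 1.24-fold lower than BPL (log2 difference -0.31, SE 0.061, adjusted p = 0.00245), a call not kept in the fit of all groups (adjusted p = 0.0872). In kidney the means were 5.86, 5.82 and 5.39 ± 0.51, with a BPH to BPL difference of 0.47 (adjusted p = 0.166). Without the 3 arrays high in adrenal markers that difference was 0.67 (adjusted p = 0.0234), and the fit of all groups called it (0.0046) and BPL against BPN in kidney (-0.43, 0.0122). In aorta and liver no Maob difference was called, with means of 9.73 to 9.93 and 11.05 to 11.25. In liver BPL against BPN was 0.20 (adjusted p = 0.0925), and some alternatives called it, among them the filter on low values (0.0448).

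Adra2c, a receptor that restrains noradrenaline release, gave no called difference. Its aorta means were 4.97, 4.98 and 5.14 in BPH, BPN and BPL, with a BPH to BPN difference of -0.012 (95% interval -0.28 to 0.25). In heart, kidney and liver it was below the array median on every array, and on all 14 kidney arrays it was in the lowest 25% of probe sets.

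Grk5, the receptor kinase, was lower in BPH than in BPN in aorta, heart and liver, on both probe sets. BPL stood with BPN in aorta, above BPN in heart and with BPH in liver. In aorta, probe set 1 ran from 10.21 over a median of 10.42 to 10.54 in BPH and from 10.64 over 10.79 to 10.89 in BPL, and was 10.75, 10.68, 10.75, 10.96 and 10.76 in BPN. Every BPH array was below every array of the other strains. BPH was 1.29-fold lower than BPN (log2 difference -0.37, SE 0.070, adjusted p = 0.000714) and 1.29-fold lower than BPL (adjusted p = 7.29e-05). Probe set 2 gave -0.48 and -0.36. Without the 4 aorta arrays high in other tissues' markers, Grk5 probe set 1 gave -0.39 and -0.37 and probe set 2 -0.48 and -0.37, all called.

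In heart, Grk5 probe set 1 was 8.04, 7.93, 8.07, 7.99 and 7.85 in BPH, 8.48, 8.33, 8.50, 8.50 and 8.73 in BPN, and 8.88, 8.999, 8.67, 8.86 and 8.93 in BPL. BPH lay below both others, and 1 BPN array lay above the lowest BPL array. BPH was lower than BPN by a factor of 1.44 (adjusted p = 0.000147) and than BPL by 1.85 (adjusted p = 2.45e-07), and BPL was 1.28-fold higher than BPN (adjusted p = 0.00487). On probe set 2 the same 3 ratios were 1.91, 2.48 and 1.29. Grk5 and Ddc thus shared the order BPH, BPN, BPL in heart.

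Liver gave the largest Grk5 difference, with BPN alone high. Probe set 2 was 3.70, 4.03, 3.98, 3.87 and 3.71 in BPH, 5.86, 5.60, 6.41, 6.07 and 6.27 in BPN, and 3.84, 3.63, 3.83, 3.61 and 3.86 in BPL. The lowest BPN array, at 5.60, was far above the highest of the others, at 4.03, and BPH and BPL overlapped each other. BPH was 4.55-fold lower than BPN (log2 difference -2.19, SE 0.12, adjusted p = 3.94e-10) and BPL 4.88-fold lower (-2.29, SE 0.12, adjusted p = 1.92e-10). The low strains lay at the liver array median of 3.76 to 3.85, with 4 of their 10 arrays below it, so these folds may be lower bounds. Probe set 1 was 5.48, 5.39, 5.57, 5.72 and 5.52 in BPH, 6.52, 6.37, 6.91, 7.12 and 6.81 in BPN, and 5.55, 5.50, 5.25, 5.52 and 5.48 in BPL, with ratios of 2.31 and 2.44. The probe sets therefore showed one pattern and different sizes. In kidney Grk5 was not called, with probe set 1 means of 6.999, 6.98 and 7.06 and a BPH to BPN difference of 0.016 (95% interval -0.11 to 0.14), or -0.012 without the 3 arrays high in adrenal markers.

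**Figure D5:**
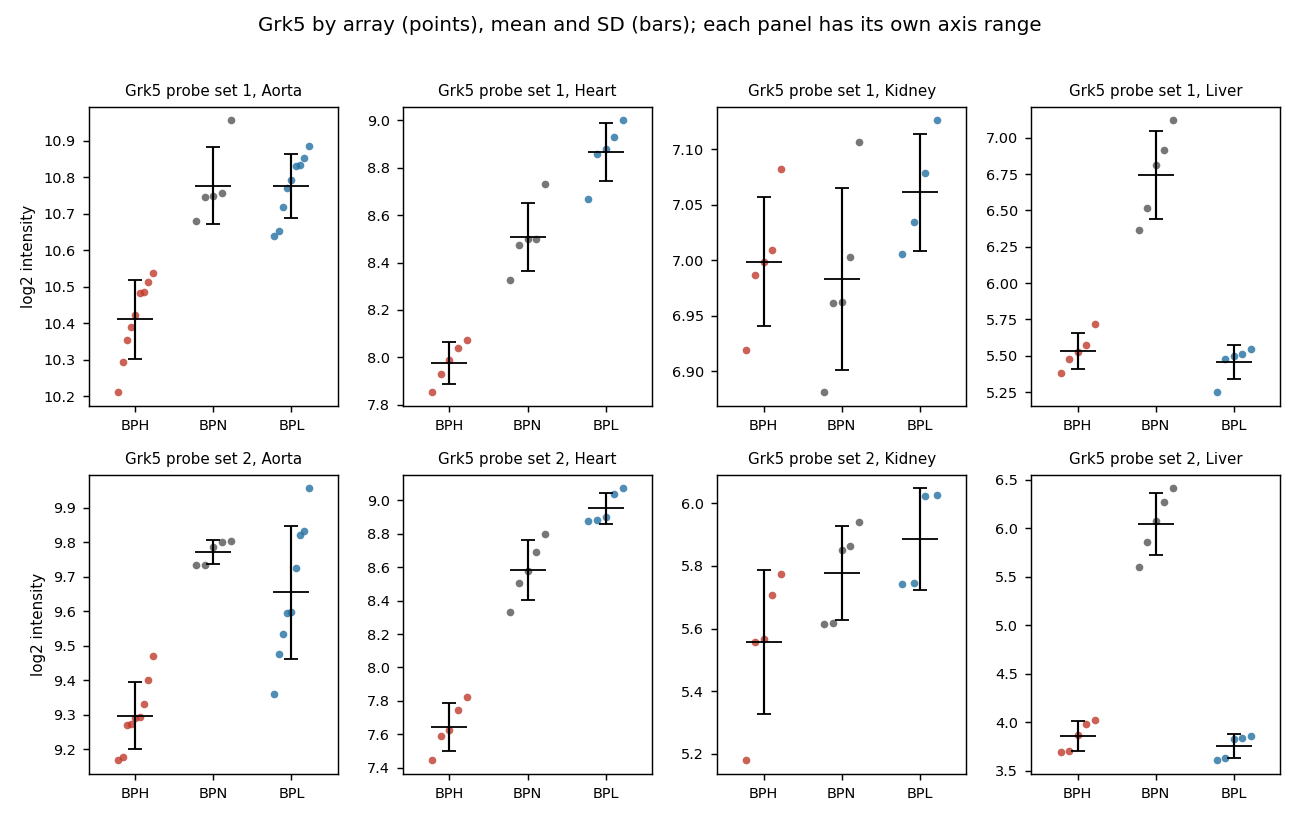
Log2 intensity of both Grk5 probe sets by tissue and strain, with points for arrays in order of value, bars for the mean and SD, and an axis range for each panel. BPH lies below BPN without overlap in aorta, heart and liver, and in liver BPL lies with BPH, at 3.61 to 3.86 on probe set 2 against 5.60 to 6.41 in BPN.

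Whether a strain difference varied among the 4 tissues was tested with an interaction F test in a fit of all 12 groups. Its p-values were adjusted over all probe sets. The fit had no term for the animal and read arrays of different tissues as independent. Tissues of a strain may come from the same mice, and the effect of that on these p-values was not tested. For BPH minus BPN, 4 of 12 member probe sets were called beside 13.7% of all probe sets, and for BPL minus BPN 6 of 12 beside 15.3%. Grk5 was called on both probe sets for BPH minus BPN (adjusted p = 9.46e-12 and 5.8e-17) and for BPL minus BPN (4.4e-18 and 1.31e-23). Npy for BPL minus BPN had an adjusted p of 8.76e-23. Ddc for BPL minus BPN, positive in heart and negative elsewhere on probe set 1, had 1.47e-08 and 6.48e-12 on its 2 probe sets. For BPH minus BPN, Ddc was called on probe set 2 (4.13e-06) and not on probe set 1 (0.321). Probe set 2 was below the array median on every aorta array, and in heart, kidney and liver alone its adjusted p was 0.0195. Slc6a2 for BPH minus BPN was called at 0.031, and it was not called in heart, kidney and liver alone (0.757) or with array weights (0.0539), so it rests on aorta, whose RNA was amplified by another protocol. Without aorta BPN array 11 its adjusted p was 0.148, without BPN array 12 0.106, and without BPH array 3, 7 or 11 between 0.0524 and 0.0629. Maob for BPL minus BPN was called at 0.00532, and at 0.103 without kidney BPL array 2.

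The other genes of the pathway came from a list of 53, of which 33 were measured, 24 of them outside the 9 genes; the rest are not analysed here. Each was read by its brightest probe set of the tissue. For BPH against BPN, aorta had 1 of the 24 higher and 1 lower, heart 2 higher, kidney 3 higher, and liver 3 higher and 1 lower, while 11.7%, 8.47%, 8.58% and 9.1% of all named genes were called in the 4 tissues. For BPL against BPN, aorta had 2 higher and 1 lower, heart 2 and 2, kidney 3 and 0, and liver 3 and 1, beside 12.9%, 11.3%, 7.77% and 9.41%. For BPH against BPL, aorta had 3 higher and 2 lower, heart 2 and 2, kidney 1 and 2, and liver 1 and 1, beside 13.2%, 10.4%, 7.88% and 7.36%. The median difference over the 24 lay between -0.064 and 0.046, against -0.012 to 0.0094 over all named genes. In each comparison 2 to 5 of the 24 were called, and nothing particular to the list was read from that.

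Among genes of tetrahydrobiopterin, the cofactor of Th, Pts in heart was higher in BPL than in BPN by 1.12 (adjusted p = 8.45e-09). Qdpr, which regenerates that cofactor, was higher than in BPN in kidney of BPH (0.39) and BPL (0.35) and in liver of both (0.25 and 0.31), the opposite direction to Ddc in those tissues. Cyb561, an electron carrier of secretory vesicles, was higher in BPL than in BPN in liver by 2.01 and in kidney by 0.65. The granule protein Chgb in aorta was higher in BPH than in BPN by 0.80 (adjusted p = 0.00159), while Slc22a2, a low-affinity organic cation carrier, was lower there (-0.96, adjusted p = 0.00249), as Slc6a2 was. In kidney Slc22a2 went the other way, 0.33 higher in BPH and 0.42 higher in BPL than in BPN. Of the desensitising genes, Grk3 in heart was opposite to Grk5, higher in BPH (0.33) and lower in BPL (-0.52) than in BPN. Arrb2, a beta-arrestin, was lower in liver of BPH (-0.32) and BPL (-0.38), and higher in aorta of BPL (0.47). Sult1a1, a sulphating enzyme of amines and phenols, was higher in BPH than in BPL in aorta (0.41), heart (0.40) and liver (0.74). Aldh2, which oxidises the aldehydes that monoamine oxidases form, was lower in BPL than in BPN in aorta (-0.41), as Maoa was. Ngfr, a receptor of nerve growth factor, was higher than in BPN in liver of BPH (0.63) and BPL (0.45).

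Genes most like each member were ranked by Pearson's r over the 67 arrays after each tissue's mean was removed, as a description over arrays that share tissue and strain. Th was most like Cyp11a1 (0.768), Cyp21a1 (0.731) and Hsd3b1 (0.696), all steroid-making enzymes of the adrenal cortex. The ranking was not repeated without the kidney arrays high in adrenal cortex markers, which held the highest Th of kidney, so it may rest on those few arrays. Ddc was most like Acta2 (0.698), Man1a2 (0.673) and Kctd15 (0.647), Npy like Defb26 (0.920), Tm4sf5 (0.918) and Gm5662 (0.871), and Grk5 like Pxdc1 (0.750), Sertad4 (0.744) and Cyp2c23 (0.735). Slc6a2 was most like Cilp (0.801), 9930012K11Rik (0.790) and Map1b (0.755). Maoa was most like Prxl2c (0.701), Atp5g1 (0.691) and Dynlt1a (0.675), and Maob like Fabp4 (0.601), Agt (0.560) and Cidea (0.541). The likest genes of Dbh were 4930425L21Rik (0.550), Inpp4a (0.518) and Tas2r144 (0.512), and those of Adra2c were Prl7a1 (0.616), Spata3 (0.552) and Actrt2 (0.549). The probe sets of one gene had an r of 0.936 for Grk5, 0.807 for Ddc and 0.553 for Maoa.

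Genes next to the members in RefSeq order, 3 on each side, were read as well. Ddc had 6 named ones, of which 3 in aorta (1 higher, 2 lower), 1 in heart (lower), 0 in kidney and 1 in liver (lower) were called for BPH against BPN. For BPL against BPN these were 3 (1 higher, 2 lower), 2, 1 and 1, where those of heart, kidney and liver were lower. Of the 6 neighbours of Npy, 1 was called for BPL against BPN in each tissue, lower in aorta and heart and higher in kidney and liver. The 4 of Grk5 had 2 called in aorta for BPH against BPN, both higher and so opposite to Grk5, 0 in heart, 1 higher in kidney and 1 lower in liver. The shares of all named genes called are those given for the pathway list. Chosen after their values were seen, 3 neighbours are named here. Grb10, an adaptor of insulin signalling that neighbours Ddc, was lower than in BPN in liver of BPH (-0.70, adjusted p = 0.000963) and BPL (-0.42, adjusted p = 0.0416), as Ddc was, but in heart it was lower in BPL (-0.32), where Ddc was higher. Gsdme, a gasdermin near Npy, was higher in BPL than in BPN in kidney (0.57) and also in liver (0.61), where Npy was not called. Prdx3, near Grk5, was lower than in BPN in liver of BPH (-0.35) and BPL (-0.19).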

How the data were processed

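For each probe set the authors deposited 1 intensity per array, made with RMA per the submitters' processing notes (version not given in the sources used here). Since values spanned 1.8 to 22648, the scale was taken to be linear, and log2 of the deposited intensity was used with a pseudocount of 0. Per the labels' protocols, aorta RNA was amplified with a NuGEN kit and hybridised as cDNA, and the other tissues as cRNA, so strains were compared inside each tissue. No batch or scan date is given in the sources used here.

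The limma fit of each tissue (limma 3.58.1 under R 4.3.3) estimated strain means with eBayes, and p-values were adjusted over 38385 probe sets, of which 24478 have 1 gene symbol, 65 several and 13842 none in the platform table. The number of arrays limits the precision. The text names every member, pathway genes among those called, without every comparison in which they were, and the 3 genes most like each member. The members and lists were chosen with earlier results of these data known. The code was tested on simulated data. Alternatives changed the spread, samples, scaling, pseudocount, filter, probe sets, variance model, array weights, block and single arrays. Leaving out arrays high in another tissue's markers, and single arrays in the interaction fit, was added after seeing the data.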

Additional observations from a re-analysis of the deposited data

Results flagged for a closer look

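In 8 of 144 groups of arrays, 1 array stood apart from the rest of its group by Dixon's criterion, and chance gives about 1 in 20 groups. In liver, BPH array 3 was the highest of its strain for both Ddc probe sets, at 10.16 and 9.90, and it is the array that reached into the BPL range. Also in liver, BPL array 1 was low for Maoa probe set 1, at 6.03, and BPL array 3 was low for Grk5 probe set 1, at 5.25. In aorta, BPN array 14 was high for Grk5 probe set 1, at 10.96, BPN array 11 was high for Maob, at 9.84, and BPL array 27 was low for Dbh, at 2.02. In heart, BPH array 3 was high for Maoa probe set 2, at 5.89.

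Strain differences that varied among the 4 tissues by the interaction test are the other results to look at again. That test read arrays of different tissues as independent, although they may share mice. For BPH minus BPN these were Ddc probe set 2 (adjusted p = 4.13e-06 with limma, and 0.0195 without aorta), Slc6a2 (0.031), Grk5 probe set 1 (9.46e-12) and Grk5 probe set 2 (5.8e-17). For BPL minus BPN these were Ddc probe set 1 (1.47e-08), Ddc probe set 2 (6.48e-12), Npy (8.76e-23), Maob (0.00532), Grk5 probe set 1 (4.4e-18) and Grk5 probe set 2 (1.31e-23).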

How the results depend on the processing

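Of the 44 member differences called, 38 stayed called under every alternative that tested their probe set, and none reversed. Of the 100 not called, 89 stayed so on the same basis. The filter on low values and the setting with 1 probe set per gene left some member probe sets untested. With 1 probe set per gene, which also tests fewer of them, the calls were 3 in heart for BPL against BPN (5 with every probe set), 1 in kidney for BPH against BPN (2), and in liver 2, 2 and 1 for BPH against BPN, BPL against BPN and BPH against BPL (4, 4 and 2). For BPH against BPL in kidney, 1 of 2 calls was left with arrays centred on their medians and with the array number as a replicate block, and 1 to 2 when single arrays were left out; the cause was not tested. Same-numbered arrays were read as unpaired because the numbers were taken to name arrays only. Not every same-numbered correlation was over 0.1, which cannot exclude pairing. In liver for BPL against BPN, all 5 lay between 0.043 and 0.270 (median 0.072), beside a median of -0.041 for arrays of unlike number. Aorta had only 1 same-numbered pair, for BPH against BPN. The block, not run in aorta, changed no other count by over 1.5 times. Over all probe sets, a fit of all groups called 7152, 7431 and 7890 in aorta against 3513, 3971 and 4231 within the tissue, and 1530, 1741 and 1832 in heart against 2695, 3586 and 3288, in the order BPH against BPN, BPL against BPN and BPH against BPL. Leaving out single arrays gave 3 to 5 interaction calls for BPH minus BPN and 5 to 6 for BPL minus BPN. Low signal limits Th in every tissue, apart from the kidney arrays high in adrenal markers. It also limits Dbh outside heart, Adra2c and Slc6a2 outside aorta, and Npy and Ddc probe set 2 in aorta.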
